A study of Mus musculus with 10 samples.

Results

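Axon guidance ligands and receptors were followed by gene family in nuclei of mouse hippocampus and cortex. Members were found by symbol, as genes whose names begin with Sema, Plxn, Robo, Epha, Ephb, Efna, Efnb, Ntng or Unc5 or with Slit and a digit, together with Nrp1, Nrp2, Ntn1, Ntn4, Dcc and Neo1. The rule found 72 of the 23589 genes in the table. They were 20 semaphorins, 9 plexins, 2 neuropilins, 3 slits, 4 Robo receptors, 5 ephrin-A and 3 ephrin-B ligands, 9 EphA and 5 EphB receptors, 2 netrins, 2 netrin-G proteins and 6 netrin receptors. The 2 remaining genes, Unc50 and Unc5cl, were matched by name only and are not netrin receptors.

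These families steer growing axons and, in the adult brain, are known for roles in synapse position, spine structure and the fasciculation of established tracts. Semaphorins signal through plexins, and the secreted class 3 semaphorins mostly need a neuropilin as the binding subunit of the receptor. Slits are secreted ligands of Robo receptors. Ephrins are held in the membrane and bind Eph receptor tyrosine kinases, with signalling possible into both cells. Netrins act through Dcc and neogenin (Neo1) and through the Unc5 receptors, while the related netrin-G proteins are membrane-anchored and bind leucine-rich repeat partners instead.

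Single-nucleus RNA was read by DroNc-seq, which captures nuclei with barcoded beads in droplets and counts transcripts by unique molecular identifiers (UMIs). The tissue was frozen brain of C57BL/6 mice with no treatment or transgene given in the labels, and neither age nor sex is given there. Each region gave 5 libraries. The labels give the region as cortex throughout, and only the titles of numbers 1 to 3 name prefrontal cortex. Titles carry the numbers 0 to 3, and the a and b libraries of number 0 were summed, which left 4 units per region. No label ties a number to a mouse, so the p-values reflect only how far these units vary, and that variation may be technical. Because RNA was summed over nuclei, fewer cells of a type and less RNA per cell cannot be told apart.

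Depth was 1443244 to 2600788 UMIs per library over 11624 nuclei in all, and libraries of the table shared at most 3 barcodes in any pair. Number 0 stood apart in both regions. In a chi-square comparison of gene counts divided by its degrees of freedom, unit 0 against the other numbers gave 6.5 to 7.35 for cortex and 4.27 to 4.64 for hippocampus. Numbers 1 to 3 among themselves gave 1.36 to 1.42 and 1.53 to 1.75. Hippocampal unit 0 held 86 of the 93 hippocampal nuclei with layer 2 to 4 markers. The hippocampal units also held 520 nuclei with diencephalon and midbrain markers against 18 in cortex, and 297 oligodendrocyte-like nuclei against 19. Clusters that could not be named held 1023 hippocampal nuclei, 768 of them in unit 0, and 563 of cortex. They included a cluster of 781 nuclei led by mitochondrial transcripts, with a median of 469 UMIs, of which 683 were of hippocampus. A cluster of 374 nuclei, 285 of cortex, had a median of 1777 UMIs and scored 0.67 for excitatory neuron and 0.604 for astrocyte markers. A cluster of 409, 167 of cortex, had a median of 1718 UMIs and Mag among its leading genes. It scored 0.655 for excitatory neuron and 0.643 for oligodendrocyte markers. Such scores were too close for a name, so the astrocyte-like and oligodendrocyte-like numbers leave these nuclei out. Dentate granule-like nuclei numbered 1196 in hippocampus and 1 in cortex. Each member was covered by 3 to 7157 UMIs over the series, and 68 members had at least 1 UMI in every unit.

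The promoter windows of 4 members are shown because these genes carry the regional contrast in excitatory neuron-like nuclei. Sema5a had the largest difference towards hippocampus and Ephb6 was among the most precisely measured genes towards cortex. Among called members with an entry, Epha6 and Sema4a were those higher in hippocampus and in cortex with a window that held the E-box CAGATG or its reverse complement CATCTG, a site of the kind bound by neuronal basic helix-loop-helix factors, and capitals mark it. RefSeq gives Sema4a 4 windows and the matching one is shown. Windows are RefSeq sequences on GRCm38.p6, from 250 bases before to 50 after the annotated start, written 5′ to 3′ on the gene's strand. They lie at chr15:32244563-32244862 (plus strand) for Sema5a, chr16:60605482-60605781 (minus) for Epha6, chr6:41605261-41605560 (plus) for Ephb6 and chr3:88459052-88459351 (minus) for Sema4a.
Sema5a: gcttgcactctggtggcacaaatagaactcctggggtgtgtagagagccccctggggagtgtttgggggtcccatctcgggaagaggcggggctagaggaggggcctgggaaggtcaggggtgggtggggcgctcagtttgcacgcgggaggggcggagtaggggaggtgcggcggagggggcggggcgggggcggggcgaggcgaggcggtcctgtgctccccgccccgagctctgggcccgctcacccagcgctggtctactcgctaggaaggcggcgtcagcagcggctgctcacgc
Epha6: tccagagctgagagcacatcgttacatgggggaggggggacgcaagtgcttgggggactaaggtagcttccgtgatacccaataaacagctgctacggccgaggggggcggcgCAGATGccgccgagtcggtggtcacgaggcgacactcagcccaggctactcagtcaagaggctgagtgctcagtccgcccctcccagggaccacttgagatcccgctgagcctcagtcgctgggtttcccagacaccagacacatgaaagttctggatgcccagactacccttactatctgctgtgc
Ephb6: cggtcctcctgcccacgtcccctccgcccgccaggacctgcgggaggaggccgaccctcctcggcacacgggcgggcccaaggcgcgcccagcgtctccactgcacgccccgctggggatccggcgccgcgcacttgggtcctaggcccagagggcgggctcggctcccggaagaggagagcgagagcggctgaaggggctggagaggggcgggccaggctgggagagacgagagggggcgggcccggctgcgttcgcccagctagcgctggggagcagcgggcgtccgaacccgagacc
Sema4a: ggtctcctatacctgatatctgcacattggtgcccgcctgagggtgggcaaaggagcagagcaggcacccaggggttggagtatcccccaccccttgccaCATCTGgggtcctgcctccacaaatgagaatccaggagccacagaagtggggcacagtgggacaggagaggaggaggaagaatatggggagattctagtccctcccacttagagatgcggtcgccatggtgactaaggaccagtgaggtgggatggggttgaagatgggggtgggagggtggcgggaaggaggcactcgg

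GC content was 71.3% for the Sema5a window, 60.3% for Epha6, 76.3% for Ephb6 and 59.7% for Sema4a, against a median of 52.7% over all promoter windows. The search covered both strands and no other motif. It matched 17.2% of 32851 windows of this length and 6 of the 78 windows of members, which came from 62 of the 72 genes. A match is a run of letters and was not read as a site in use.

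Summed over all nuclei, members of most families were called between the regions, in both directions. Of 72 members, 64 passed the filter on low counts. In edgeR's quasi-likelihood fit over all genes, with p-values adjusted by Benjamini and Hochberg, 22 were higher in hippocampus, 12 were higher in cortex and 30 were not called at an adjusted p under 0.05. Over all 12855 genes tested, 17.7% were called, 9.35% towards hippocampus and 8.39% towards cortex. The median log2 fold change of the members tested, always hippocampus minus cortex, was 0.30 and its median size 0.63, against 0 and 0.23 for all genes tested. The 8 members not tested were Efna4, Epha1, Epha2, Ntn4, Ntng2, Sema3b, Sema3f and Unc5cl. Among called members, every hippocampal unit was above every cortical unit for 21 of 22 genes, Sema3e being the exception, and the reverse held for 12 of 12. The calls were made from the same values, so this is no further support for them. The share over all called genes is not given here. With nuclei of named classes only, 31 of 63 members tested were called, and the share over all genes in that fit is not given here.

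Within excitatory neuron-like nuclei, 2464 of hippocampus and 4080 of cortex, 55 members were tested, of which 19 were higher in hippocampus and 11 in cortex. The same test called 16.5% of 10952 genes in this class, 8.74% towards hippocampus and 7.72% towards cortex. Members had a median log2 fold change of 0.26 and a median size of 0.68, against -0.01 and 0.25. The class sets granule and pyramidal neurons of the hippocampus against neurons of the cortical layers, so a difference here is also one between kinds of neuron. A subcluster of 607 of these nuclei, 242 of hippocampus and 365 of cortex with a median of 741 UMIs, had Gad2, Sst and the pericyte gene Rgs5 among its leading genes, and its part in the results was not tested. In the plot of fold changes by family, members of a family lie on both sides of 0 in most families, whereas all called EphA receptors and both neuropilins lie towards hippocampus.

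**Figure D1:**
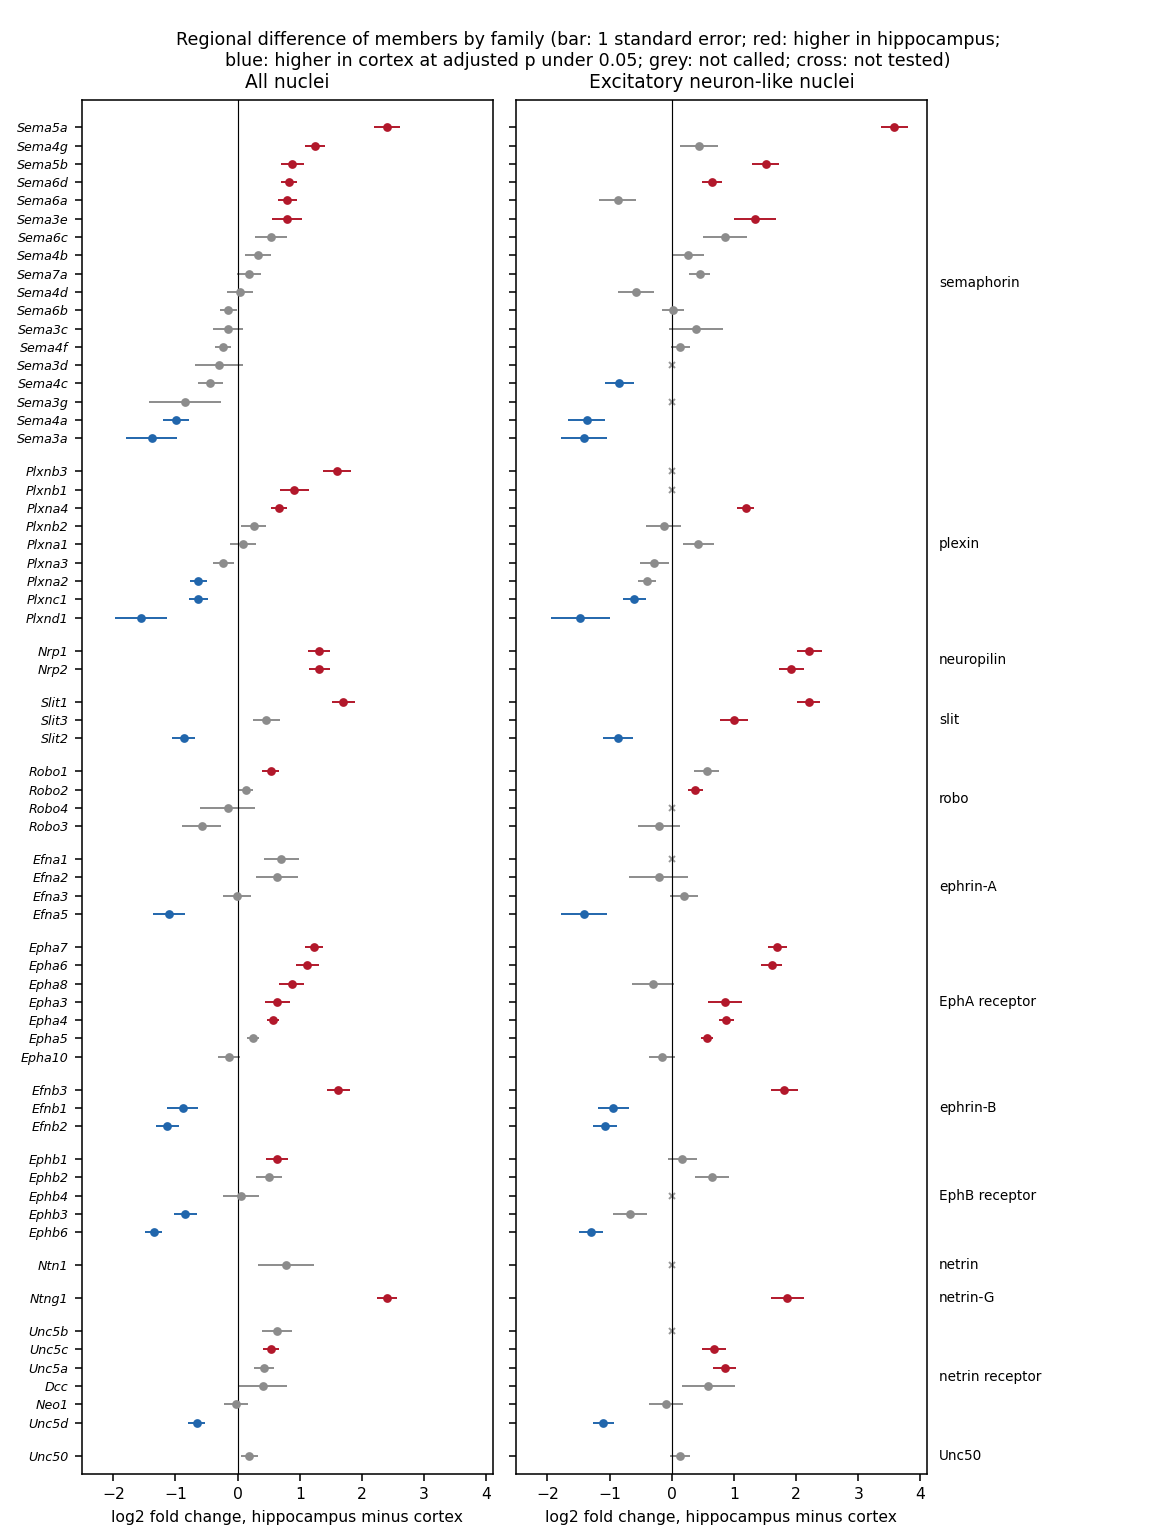
Log2 fold change, hippocampus minus cortex, of each member tested, in all nuclei (left) and excitatory neuron-like nuclei (right), 4 units per region. Points are edgeR estimates and bars 1 standard error, with red for calls towards hippocampus and blue for calls towards cortex (adjusted p under 0.05), grey for those not called and crosses for those not tested in that class. Sema5a is farthest to the right in excitatory neuron-like nuclei, at 3.58, and Plxnd1 farthest to the left, at -1.47.

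Members named beyond the naming rule and their binding partners, such as Sema5b and Sema6a, were chosen after their values were seen. Values per unit are CPM, counts scaled to the same library total (TMM-scaled here), in the order of units 0, 1, 2 and 3, and are compared within a gene only. Among the semaphorins, 6 of 18 tested in all nuclei were higher in hippocampus and 2 in cortex, and in excitatory neuron-like nuclei 4 of 16 were higher in hippocampus and 3 in cortex. Sema5a, a membrane semaphorin with thrombospondin repeats, had the widest gap. In excitatory neuron-like nuclei its cortical units were at 13.8, 11.2, 8.81 and 9.51 CPM and its hippocampal units at 93.2, 158, 135 and 155 CPM. No unit of the regions overlapped, and hippocampal unit 0 was the lowest of its group. The log2 fold change was 3.58 ± 0.22 (SE, n = 4 units per region, adjusted p = 3.28e-07), a fold of 11.9. In all nuclei it was 2.4 ± 0.21 (adjusted p = 1.61e-05). Its gene spans chr15:32244810-32696341 on the plus strand of GRCm38.

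Sema5b, the close relative of Sema5a, was at 15.4, 9.88, 10.8 and 9.51 CPM in cortical and 30.03, 35.3, 30.5 and 39.3 CPM in hippocampal excitatory neuron-like nuclei. The regions did not overlap and the log2 fold change was 1.51 ± 0.22 (adjusted p = 0.000398). Sema3e, a secreted semaphorin that can bind Plxnd1 without a neuropilin, was at 12.6, 30.3, 17.6 and 19.0 CPM in cortex and 23.8, 74.5, 63.7 and 43.8 CPM in hippocampus. Its lowest hippocampal unit, 0, fell below the highest cortical unit. The log2 fold change was 1.34 ± 0.34 (adjusted p = 0.0151), and the call was lost without hippocampal unit 1 (1.09, adjusted p = 0.0677) or 2 (1.21, adjusted p = 0.0585).

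Sema4a and Sema3a went the other way. Sema4a, a transmembrane class 4 semaphorin, was at 130, 64.6, 85.4 and 81.5 CPM in cortical and 56.9, 20.9, 31.9 and 22.5 CPM in hippocampal excitatory neuron-like nuclei. Unit 0 was the highest of its group in both regions, and the regions did not overlap. The log2 fold change was -1.37 ± 0.29 (adjusted p = 0.0051) in this class and -0.99 ± 0.21 (adjusted p = 0.00598) in all nuclei. Sema3a, the prototype repellent semaphorin, was low in both regions, at 13.4, 17.8, 13.6 and 12.9 CPM in cortex and 8.13, 5.23, 5.31 and 1.12 CPM in hippocampus. It rested on 22 UMIs in hippocampus, and its log2 fold change of -1.41 ± 0.37 (adjusted p = 0.0174) lost its call without cortical unit 1 (adjusted p = 0.054) or hippocampal unit 1 (adjusted p = 0.0504). Sema4c was also higher in cortex, with 17.9 ± 1.55 CPM (SD, n = 4) against 9.68 ± 1.55 CPM and a log2 fold change of -0.84 ± 0.24 (adjusted p = 0.0275). Leaving out any of cortical units 1 to 3 or hippocampal units 1 to 3 raised that p to between 0.0574 and 0.0809.

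Sema4g differed in all nuclei but was not called in excitatory neuron-like nuclei. Its cortical units were at 19.2, 15.7, 15.2 and 16.7 CPM and its hippocampal units at 37.0, 34.9, 49.1 and 39.5 CPM over all nuclei, with a log2 fold change of 1.24 ± 0.16 (adjusted p = 0.000216). In the excitatory class the log2 fold change was 0.44. Its pooled level was highest in diencephalon-midbrain-like nuclei (118 CPM), which numbered 520 in hippocampus and 18 in cortex. The value of Sema4g without these nuclei is not given here. Sema6a, a transmembrane semaphorin, was higher in hippocampus in all nuclei (0.80 ± 0.15, adjusted p = 0.00224), and without the diencephalon-midbrain-like nuclei it was 0.42 and not called (adjusted p = 0.0775). Its estimate in excitatory neuron-like nuclei was -0.87 ± 0.30 (adjusted p = 0.0627), of opposite sign.

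Both neuropilins, the ligand-binding co-receptors of class 3 semaphorins, were higher in hippocampus. Nrp1 was at 64.0, 54.7, 37.9 and 31.9 CPM in cortical and 168, 238, 246 and 241 CPM in hippocampal excitatory neuron-like nuclei. Hippocampal unit 0 was well below the others and still above every cortical unit. Its log2 fold change was 2.21 ± 0.20 (adjusted p = 9.15e-06). Nrp2, which prefers another set of class 3 semaphorins, was at 14.6, 23.7, 23.0 and 23.8 CPM in cortex and 62.6, 79.8, 92.9 and 84.2 CPM in hippocampus. Its regions were also separate, with a log2 fold change of 1.92 ± 0.20 (adjusted p = 2.33e-05). In all nuclei both genes were at 1.31 (SE 0.18 for Nrp1 and 0.17 for Nrp2).

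Of the 9 plexins, the signalling receptors of semaphorins, 3 were higher in hippocampus and 3 in cortex over all nuclei. In excitatory neuron-like nuclei 1 of 7 was higher in hippocampus and 2 in cortex. Plxna4, a partner of neuropilins in the Sema3a receptor, was at 56.5, 58.6, 53.5 and 54.4 CPM in cortical and 103, 136, 142 and 134 CPM in hippocampal excitatory neuron-like nuclei. The cortical units were within a narrow range and all hippocampal units lay above them (log2 fold change 1.19 ± 0.14, adjusted p = 6.19e-05). Plxnc1, the receptor of Sema7a, was at 52.1, 47.4, 58.9 and 56.4 CPM in cortex and 34.4, 44.5, 25.2 and 37.0 CPM in hippocampus. Its log2 fold change of -0.60 ± 0.18 (adjusted p = 0.0302) was not called without cortical unit 2 or 3 or hippocampal unit 2 or 3 (adjusted p 0.0661 to 0.1).

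Plxnd1, the Sema3e receptor, rested heavily on which units were compared. Over all nuclei it was at 101, 51.3, 61.4 and 61.0 CPM in cortex and 50.4, 10.8, 8.42 and 11.7 CPM in hippocampus, with hippocampal unit 0 far above the other 3. The log2 fold change was -1.55 ± 0.42 (adjusted p = 0.0221), and the call was lost without hippocampal unit 1, 2 or 3 (adjusted p 0.0587 to 0.0736). Without hippocampal unit 0 it was -2.74 (adjusted p = 1.82e-05). Number 0 alone, where the a and b libraries of 1 unit per region stand in as replicates, gave -0.99, and numbers 1 to 3 alone gave -2.48. In excitatory neuron-like nuclei the regions overlapped (log2 fold change -1.47 ± 0.47, adjusted p = 0.0477), and of all single units only the removal of hippocampal unit 0 kept the call (-3.02, adjusted p = 9.23e-06), with adjusted p from 0.0597 to 0.139 for the other 7. Leaving out the layer 2 to 4-like nuclei of the hippocampal units, most of them in unit 0, gave -1.63 (adjusted p = 0.017).

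Plxna2 was higher in cortex over all nuclei, at 235, 206, 183 and 186 CPM against 152, 128, 103 and 136 CPM (log2 fold change -0.63 ± 0.13, adjusted p = 0.00397). It was not called in excitatory neuron-like nuclei (-0.40 ± 0.14, adjusted p = 0.0699). Plxnb3 and Plxnb1 were higher in hippocampus over all nuclei but fell below the count filter in excitatory neuron-like nuclei. The Plxnb1 call (0.91 ± 0.23, adjusted p = 0.0163) was lost without cortical unit 1 or 2 or hippocampal unit 2 (adjusted p 0.0505 to 0.0533). Plxnb1 was highest in astrocyte-like nuclei, which numbered 597 in hippocampus and 150 in cortex, and within them its log2 fold change was 0.19 ± 0.31 (adjusted p = 0.862). Plxnb3, a receptor of Sema5a, was at 9.03, 7.21, 5.05 and 5.02 CPM in cortex and 24.3, 20.9, 17.5 and 18.9 CPM in hippocampus, a log2 fold change of 1.60 ± 0.23 (adjusted p = 0.000467). With oligodendrocyte-like nuclei left out it was 0.99 (adjusted p = 0.0246). That fit still held the unnamed cluster of 409 nuclei, 242 of hippocampus, with Mag among its leading genes.

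**Figure D2:**
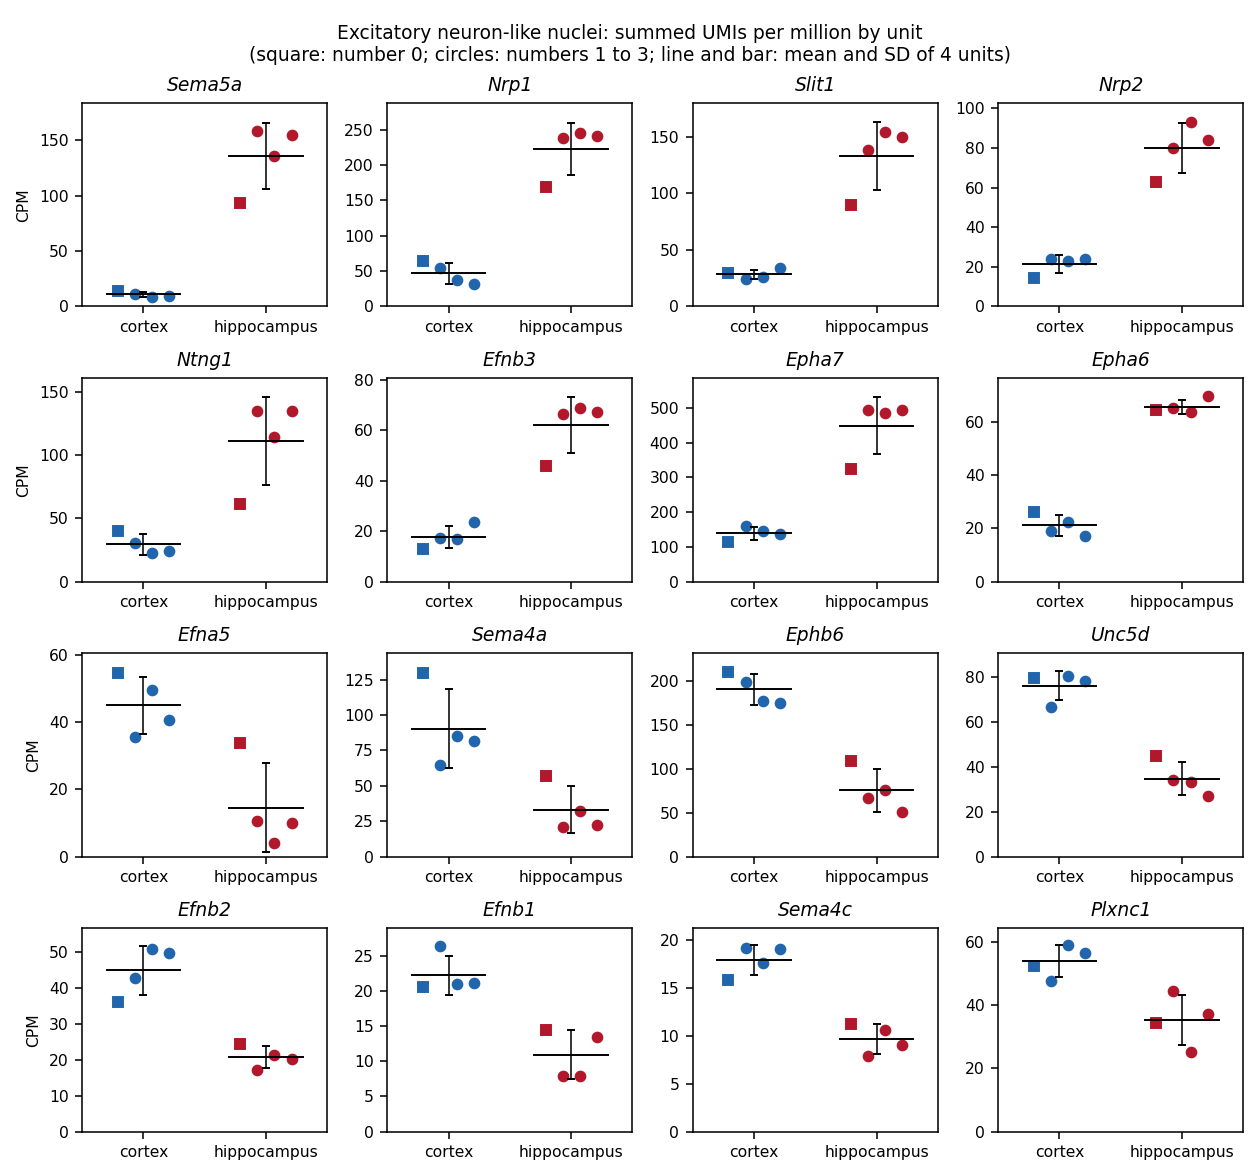
Level of the members named by rule in excitatory neuron-like nuclei, in CPM on a linear axis from 0, with a point for each of the 4 units of cortex and of hippocampus. For Sema5a all hippocampal units are at 93.2 CPM or more and all cortical units at 13.8 CPM or less, and for Efna5 hippocampal unit 0 stands at 33.8 CPM, above its other 3 units.

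The slits were split. Slit1 was at 29.2, 24.4, 26.4 and 34.0 CPM in cortical and 89.5, 139, 154 and 150 CPM in hippocampal excitatory neuron-like nuclei. All hippocampal units were above all cortical units, with unit 0 lowest (log2 fold change 2.20 ± 0.19, adjusted p = 6.58e-06). Slit3 was at 33.6, 20.4, 16.3 and 21.1 CPM in cortex and 43.8, 37.9, 54.4 and 52.8 CPM in hippocampus (1.00 ± 0.23, adjusted p = 0.00826). Slit2 went towards cortex, at 65.2, 49.4, 37.9 and 55.0 CPM against 38.8, 19.6, 33.2 and 19.1 CPM. Its regions overlapped by the highest hippocampal and lowest cortical unit. The log2 fold change of -0.87 ± 0.24 (adjusted p = 0.0242) lost its call without cortical unit 3 (adjusted p = 0.057), hippocampal unit 1 (0.084) or hippocampal unit 3 (0.0861). In all nuclei Slit2 was also higher in cortex (-0.87 ± 0.19, adjusted p = 0.0063).

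Their Robo receptors moved little. Robo2 was at 162, 128, 144 and 138 CPM in cortical and 184, 184, 208 and 172 CPM in hippocampal excitatory neuron-like nuclei, with a log2 fold change of 0.38 ± 0.12 (adjusted p = 0.0413). The regions were separate but the call was lost without any of cortical units 1 to 3 or hippocampal units 1 to 3 (adjusted p 0.0624 to 0.135). Robo1 was not called in this class (0.56 ± 0.20, adjusted p = 0.0729). In all nuclei Robo1 was called (0.53 ± 0.14, adjusted p = 0.0179) and Robo2 was not (0.13 ± 0.11, adjusted p = 0.49), and the Robo1 call was lost without cortical unit 1 or 2 or hippocampal unit 1 (adjusted p 0.0502 to 0.0568).

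Ephrins and Eph receptors signal at cell contacts. Of 7 EphA receptors tested in excitatory neuron-like nuclei, 5 were higher in hippocampus and none in cortex, while Efna5 was the only ephrin-A of 3 called, towards cortex. Epha7 was at 113, 160, 144 and 136 CPM in cortex and 325, 493, 485 and 493 CPM in hippocampus. The regions were far apart (log2 fold change 1.70 ± 0.15, adjusted p = 8.31e-06). Epha6 was at 26.1, 19.1, 22.4 and 17.0 CPM in cortex and 64.5, 65.4, 63.7 and 69.6 CPM in hippocampus, with hippocampal unit 0 level with the others (1.61 ± 0.17, adjusted p = 2.52e-05). Epha4, which binds ephrins of both classes, was at 283 ± 26.7 CPM (SD, n = 4) in cortex and 523 ± 74.6 CPM in hippocampus (0.88 ± 0.12, adjusted p = 0.000237). Epha5 was at 370 ± 24.3 CPM and 551 ± 59.5 CPM (0.57 ± 0.10, adjusted p = 0.00185), with no overlap of units. Epha3, at 12.1 ± 3.86 and 22.7 ± 4.51 CPM (0.86 ± 0.27, adjusted p = 0.0442), lost its call without any of cortical or hippocampal units 1 to 3 (adjusted p 0.0634 to 0.147).

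Efna5, a membrane-anchored ligand of EphA receptors, was at 54.5, 35.6, 49.5 and 40.8 CPM in cortical and 33.8, 10.5, 3.98 and 10.1 CPM in hippocampal excitatory neuron-like nuclei. Hippocampal unit 0 lay just under the lowest cortical unit and the other hippocampal units far below it. Its log2 fold change was -1.41 ± 0.37 (adjusted p = 0.0188). Without hippocampal unit 0 it was -2.44 (adjusted p = 2.5e-05), and without hippocampal unit 1, 2 or 3 the call was lost (adjusted p 0.0503 to 0.0685). In all nuclei it was -1.10 ± 0.26 (adjusted p = 0.0104). Epha8 was called over all nuclei (0.87 ± 0.20, adjusted p = 0.00886), and without diencephalon-midbrain-like nuclei its estimate was -0.12 ± 0.26 (adjusted p = 0.799).

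The 3 ephrin-B ligands, all transmembrane, were called in different directions. Efnb3 was at 13.03, 17.1, 16.9 and 23.8 CPM in cortical and 45.7, 66.7, 69.0 and 67.3 CPM in hippocampal excitatory neuron-like nuclei, separate in every unit (log2 fold change 1.81 ± 0.22, adjusted p = 7.02e-05). Efnb2 was at 35.9, 42.8, 50.8 and 49.6 CPM in cortex and 24.4, 17.0, 21.2 and 20.2 CPM in hippocampus (-1.07 ± 0.19, adjusted p = 0.00181), again with no overlap. Efnb1 was at 20.5, 26.4, 21 and 21.1 CPM and 14.4, 7.85, 7.97 and 13.5 CPM. Its log2 fold change of -0.94 ± 0.25 (adjusted p = 0.0189) was not called without cortical unit 1 or hippocampal unit 1 or 2 (adjusted p 0.0594 to 0.0626). In all nuclei Efnb3 was at 1.62 ± 0.18 (adjusted p = 8.68e-05), and at 1.37 (adjusted p = 0.000912) with oligodendrocyte-like nuclei left out. The unnamed cluster of 409 nuclei with Mag among its leading genes stayed in that fit.

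Among EphB receptors, 1 of 4 tested in excitatory neuron-like nuclei was called. Ephb6, a receptor whose kinase domain lacks catalytic activity, was at 211, 199, 177 and 175 CPM in cortex and 109, 66.7, 75.7 and 50.5 CPM in hippocampus. Every cortical unit was above every hippocampal unit (log2 fold change -1.30 ± 0.19, adjusted p = 0.00033), and all nuclei gave -1.35 ± 0.14 (adjusted p = 4.79e-05). Ephb3 was called in all nuclei, at 33.4, 26.7, 29.9 and 24.7 CPM in cortex and 19.8, 13.3, 16.8 and 12.8 CPM in hippocampus (-0.84 ± 0.18, adjusted p = 0.00654). Its excitatory estimate was -0.67 and not called. Ephb1 was called the other way over all nuclei, with 17.0 ± 3.23 CPM (SD, n = 4) in cortex and 27.1 ± 3.17 CPM in hippocampus (0.63 ± 0.18, adjusted p = 0.0282). That call was lost without any of cortical or hippocampal units 1 to 3 (adjusted p 0.0583 to 0.0811).

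Netrins were sparse, with 83 UMIs of Ntn1 and 80 of Ntn4 over the series, and Ntn1 was not called in all nuclei (0.78 ± 0.45, adjusted p = 0.266). Ntng1, the membrane-anchored netrin-G1, was at 34.3, 28.4, 19.8 and 24.2 CPM in cortex and 170, 131, 134 and 134 CPM in hippocampus over all nuclei. All hippocampal units were far above the cortical units (log2 fold change 2.4 ± 0.16, adjusted p = 2.37e-06), and without diencephalon-midbrain-like nuclei it was 1.84 (adjusted p = 4.53e-05). In excitatory neuron-like nuclei it was at 40.3, 30.3, 22.4 and 24.5 CPM and 61.3, 135, 114 and 135 CPM (1.86 ± 0.26, adjusted p = 0.000232), with number 0 alone giving 0.63, its a and b libraries being repeats of 1 unit per region, and numbers 1 to 3 alone 2.32. Unc5d, a netrin-family receptor of upper-layer neurons, went towards cortex, at 79.8, 66.5, 80.6 and 78.1 CPM against 45.1, 34.0, 33.2 and 26.9 CPM (-1.10 ± 0.17, adjusted p = 0.000612). Its relatives Unc5a (0.85 ± 0.19, adjusted p = 0.0073) and Unc5c (0.68 ± 0.20, adjusted p = 0.0281) were higher in hippocampus. The Unc5c call was lost without any of cortical or hippocampal units 1 to 3 (adjusted p 0.0508 to 0.0996). Dcc and Neo1, the attractive netrin receptors, were not called.

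Ligand and receptor were next set side by side over 61 pairs known to bind or to form a receptor. Pairs share genes and are not independent, so they are counted without a test. In excitatory neuron-like nuclei both genes were tested for 41 pairs. Both were higher in hippocampus for 3 pairs (Slit1 and Slit3 with Robo2, Efnb3 with Epha4), both higher in cortex for 1 (Sema4a with Plxnd1), called in opposite directions for 9, called for 1 gene only in 24 and for neither in 4. The 9 opposite pairs were Sema3a with Nrp1 and with Plxna4, Sema3e with Plxnd1, Slit2 with Robo2, Efna5 with Epha3, Epha5 and Epha7, Efnb2 with Epha4, and Ntng1 with Lrrc4c. These counts rest on calls that 1 unit can end. Without hippocampal unit 1, 2 of the 9 opposite pairs, 1 of the 3 pairs higher in hippocampus and 0 pairs higher in cortex were left. Any removal of a unit from numbers 1 to 3 left 2 to 6 of the 9 and 1 of the 3, and the cortical pair was kept only without hippocampal unit 0. Lrrc4c, which encodes the netrin-G1 ligand, was at 164 ± 12.3 CPM in cortex and 82.2 ± 9.93 CPM in hippocampus (SD, n = 4, log2 fold change -0.99 ± 0.13, adjusted p = 0.000161). Of the 61 pairs, 55 were tested for both genes in all nuclei, where 5 were higher in hippocampus together, 1 in cortex together and 14 in opposite directions.

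**Figure D3:**
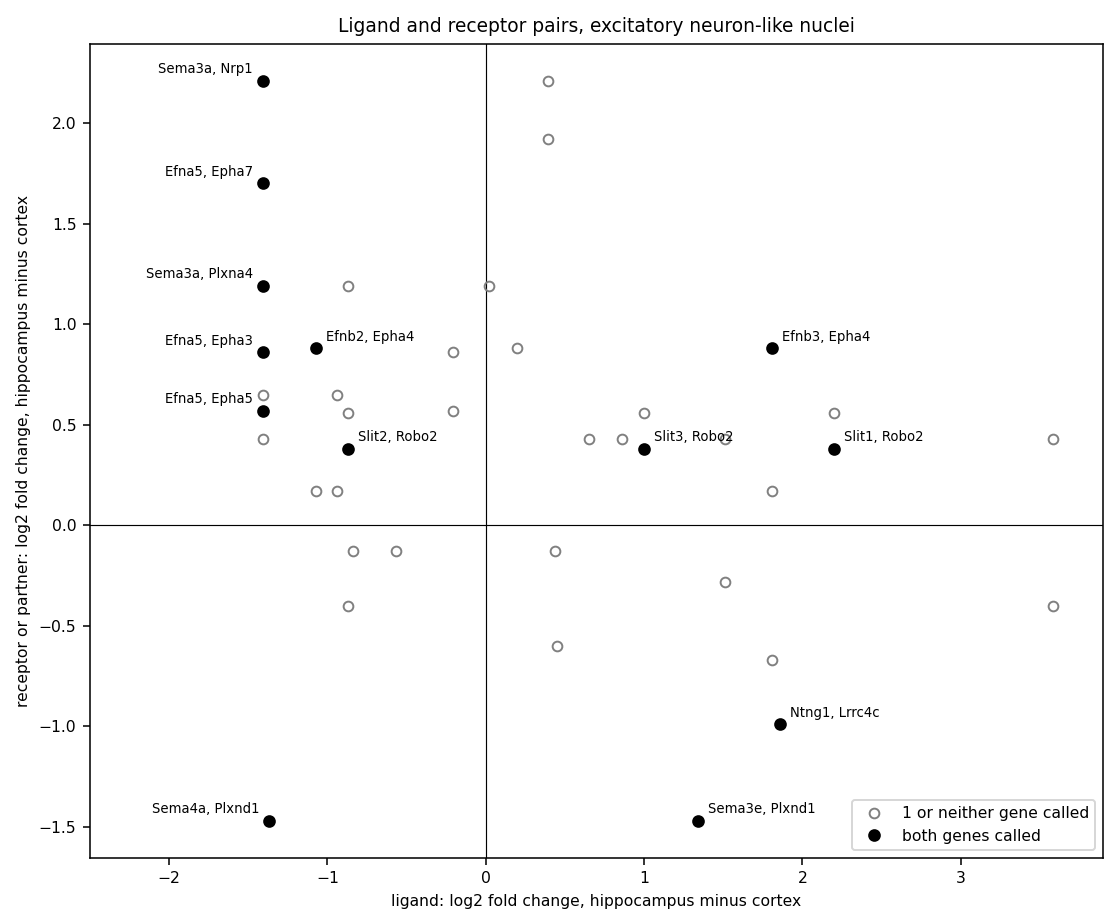
Each point is a ligand and receptor pair in excitatory neuron-like nuclei, with the log2 fold change (hippocampus minus cortex) of the ligand on the horizontal and of the receptor or partner on the vertical axis. Filled points, labelled, are the pairs with both genes called: 9 lie in the quadrants of opposite sign, with Efna5 and Sema3a near -1.41 on the ligand axis against receptors above 0, and 4 in the quadrants of equal sign. Without hippocampal unit 1, 2 of the 9 had both genes called.

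Where these genes sat among excitatory neurons was described from subclusters named by markers, with members left out of the clustering. Subclusters without a name were left out, the largest with 744 nuclei, 723 of them of cortex. The others held 607, 437, 308, 199 and 60 nuclei, each with more of cortex than of hippocampus. A highest level is therefore one among named subtypes only. Levels here are plain CPM without scaling between samples, and because clusters were built from the same nuclei no test was made. Sema5a was at 298 ± 10.2 CPM (SD, n = 4 hippocampal units) in dentate granule-like nuclei, with 310, 301, 296 and 286 CPM in units 0 to 3, against 15.8 ± 8.07 CPM in CA1-like and 66.0 ± 43.2 CPM in CA3-like nuclei. In the pooled nuclei of layer 2 to 4-like clusters it was at 3.77 CPM. Within granule-like nuclei hippocampal unit 0 was the highest of the 4 for Sema5a, while it was lowest over the excitatory class, of which granule-like nuclei were 284 of 834 in unit 0 and 344 of 597 in unit 3. Efnb3 (104 ± 7.29 CPM) and Epha7 (648 ± 19.6 CPM) also had their highest subtype level in granule-like nuclei.

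CA3-like nuclei led for Epha4 (760 ± 94.4 CPM), Epha5 (980 ± 105 CPM), Nrp1 (329 ± 62.8 CPM), Nrp2 (125 ± 30.4 CPM) and Sema5b (98.2 ± 34.0 CPM). For Nrp2 the granule-like level of 111 ± 11.4 CPM was within the spread of units of the CA3-like level. Slit1 was spread over all hippocampal subtypes, at 185 ± 19.6 CPM in granule-like, 159 ± 25.4 CPM in CA3-like and 127 ± 33.4 CPM in CA1-like nuclei, and the units of neighbours in that order overlapped. Sema3e was at 118 ± 18.5 CPM in CA1-like nuclei, and its pooled level was 95.5 CPM in CA3-like and 7.57 CPM in granule-like nuclei. Epha6 in CA1-like nuclei varied widely, at 181, 117, 77.7 and 125 CPM.

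In cortex, Plxnd1 was at 91.2 ± 30.6 CPM in layer 2 to 4-like nuclei, with 133 CPM in unit 0 and 61.7 to 93.0 CPM in the others, and its pooled level was 15.8 CPM in layer 5-like and 5.37 CPM in layer 6-like nuclei. Unc5d was at 111 ± 15.7 CPM in the same nuclei. Its pooled level was 103 CPM there, against 26.7 and 16.1 CPM in layers 5 and 6. The pooled Sst and Pvalb interneuron groups were close to it, at 100 and 84.0 CPM. Robo3 was at 347 CPM in unit 0 of the layer 2 to 4-like nuclei and 131 to 168 CPM in the other units. Layer 6-like nuclei held the highest pooled excitatory level of Ephb6 (267 CPM) and Sema4a (129 CPM), and layer 5-like nuclei that of Efna5 (53.3 CPM) and Efnb2 (50.4 CPM). Pooled levels cover the nuclei of both regions. Layer 5-like nuclei numbered 390 in cortex and 124 in hippocampus, and layer 6-like nuclei 459 and 52. Sema3e and Plxnd1 were thus high in different subtypes, the first in CA1-like and CA3-like and the second in layer 2 to 4-like nuclei.

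**Figure D4:**
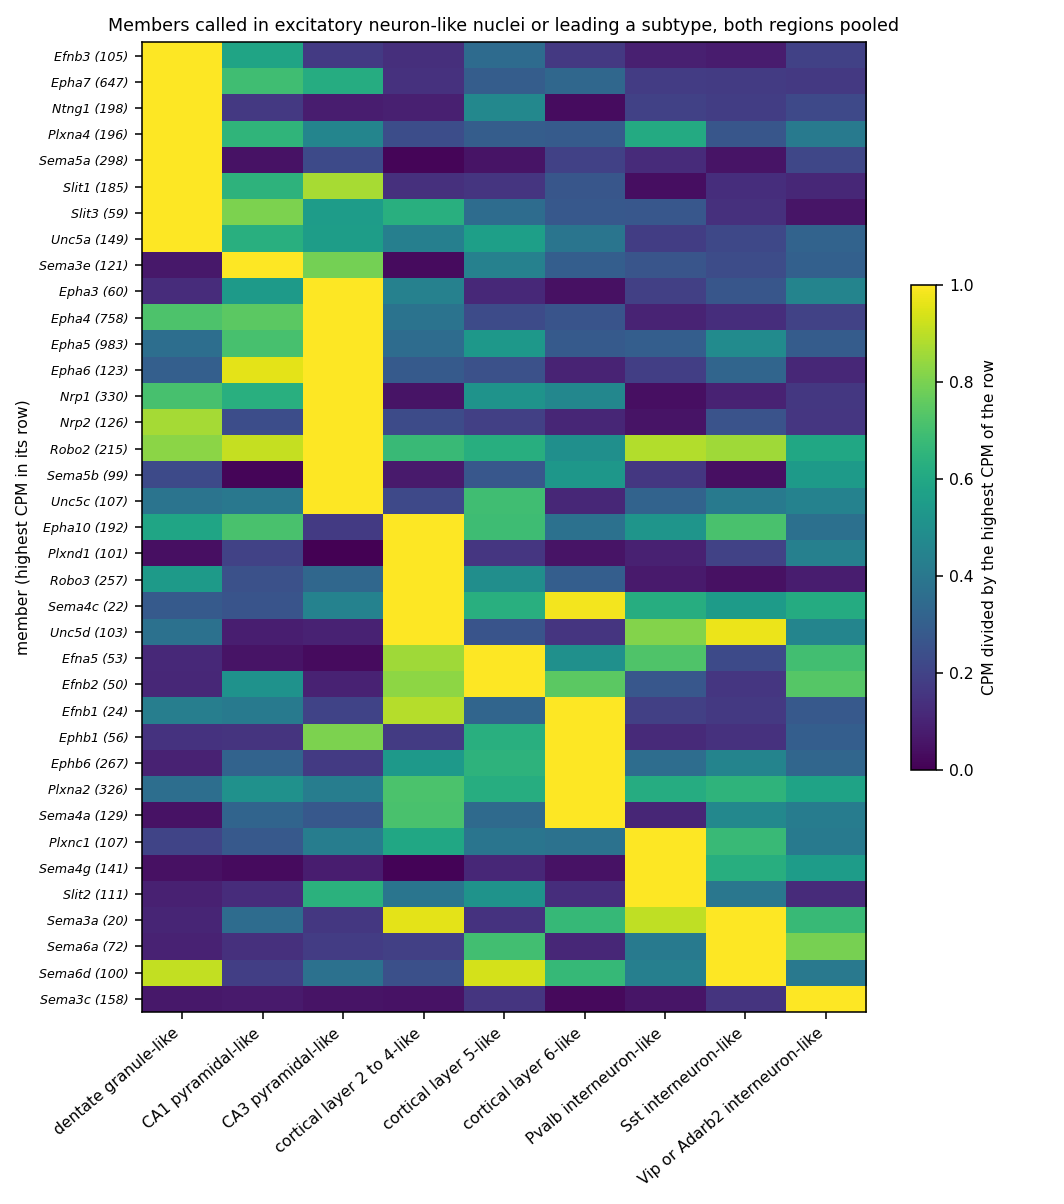
Pooled CPM of the leading members across neuron subtypes named from markers, with both regions pooled. Each row is divided by its highest value, which stands in brackets after the gene. Sema5a peaks in dentate granule-like nuclei at 298 CPM and Plxnd1 in layer 2 to 4-like nuclei at 101 CPM. The values describe clusters and carry no test.

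Inhibitory neuron-like nuclei were far fewer, with 215 of hippocampus and 578 of cortex, and 18 members passed the count filter. By edgeR 0 of 18 were called, against 0.354% of 4801 genes (0.104% towards hippocampus and 0.25% towards cortex). At an unadjusted p under 0.05 there were 5, and DESeq2 called 0. The estimates nearest to a call were Sema4g, at 113, 52.9, 47.7 and 64.4 CPM in cortex and 106, 121, 266 and 184 CPM in hippocampus (log2 fold change 1.14 ± 0.32, adjusted p = 0.126), and Unc5d. With numbers 1 to 3 alone 4 members were called higher in hippocampus, namely Sema4g (1.81), Sema5a (2.13), Unc5d (1.30) and Epha5 (0.63). That setting also raised the calls over all genes in all nuclei and in excitatory neuron-like nuclei. Its share over all genes in inhibitory nuclei is not given here, so the 4 are not read as a result about members. A group of 88 nuclei in this class, 12 of hippocampus and 76 of cortex, had the excitatory genes Tbr1 and Itpka among its leading genes and a median of 4264 UMIs. Its part in these values was not tested.

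Whether the regional difference itself depended on neuron class was asked with an interaction term, fitted to both classes together and blocked by unit. For 3 of 52 members tested the log2 fold change was called higher in excitatory than in inhibitory nuclei, and for 2 lower. Over all 10714 genes tested, 3.33% were called (2.18% above 0 and 1.15% below). Without the block, and by DESeq2, 3 were called. Unc5d differed most clearly, at -2.09 ± 0.33 (adjusted p = 8.03e-08). It was lower in hippocampus in the excitatory class, but in inhibitory nuclei its cortical units were at 51.7, 70.5, 59.6 and 85.9 CPM and its hippocampal units at 72.5, 136, 215 and 174 CPM, a log2 fold change of 1.09 ± 0.33 (adjusted p = 0.159). Sema5a (2.25 ± 0.41, adjusted p = 9.06e-06) and Epha7 (1.13 ± 0.26, adjusted p = 0.000814) had larger differences among excitatory nuclei. Their inhibitory estimates were 1.31 ± 0.42 and 0.55 ± 0.28.

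The other interaction calls were less firm. Ephb6 was at -1.08 ± 0.32 (adjusted p = 0.0274) and lost its call without cortical unit 0 or 1 or hippocampal unit 0 or 3 (adjusted p 0.0557 to 0.231). Slit3, at 2.84 ± 0.90 (adjusted p = 0.0499), rested on 2 UMIs in hippocampal inhibitory nuclei and kept its call among single removals without cortical unit 3 only, with adjusted p of 0.053 to 0.21 without any of the others.

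Interneuron subtypes showed their own members, as a description. Sema3c, a secreted class 3 semaphorin, was at 150 ± 32.8 CPM (SD, n = 4) in cortical nuclei with Vip or Adarb2 markers, with 197, 145, 133 and 123.1 CPM in units 0 to 3. In the pooled Pvalb group Slit2 was at 111 CPM, against 44.1 CPM in the Sst and 13.5 CPM in the Vip or Adarb2 group. Sema4g was at 94.5 ± 60.3 CPM in cortical Pvalb-like nuclei, of which unit 0 had 184 CPM and the others 55.8 to 75.3 CPM.

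Glial and vascular classes were described in the same way. Endothelial-like nuclei, a cluster that also carried pericyte markers, had Sema3c at 684 ± 162 CPM in cortex and 627 ± 169 CPM in hippocampus. Sema7a, a membrane-anchored semaphorin, was at 403 ± 33.7 and 483 ± 41.6 CPM there, and Nrp1, also a co-receptor for vascular endothelial growth factor, at 437 ± 72.8 and 454 ± 141 CPM. Robo4, the endothelial Robo, was at 178 ± 40.5 and 168 ± 49.0 CPM (n = 4 units each), and in no other class did it exceed 4.21 CPM pooled. Pooled Sema3g was at 62.5 CPM and Epha2 at 38.4 CPM, with at most 2.34 and 5.18 CPM in any other class. By edgeR 0 of 8 members tested were called between regions in this class (background 2.35% of 2984 genes, 0.905% towards hippocampus and 1.44% towards cortex), with 0 at an unadjusted p under 0.05 and 0 by DESeq2.

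Oligodendrocyte-like nuclei of hippocampus had Efnb3 at 433, 408, 741 and 695 CPM and Plxnb3 at 281, 323, 356 and 316 CPM. Pooled over both regions these were 16.2 and 86.0 times the median of the other classes. Unc5b (124 ± 32.3 CPM) and Sema6a (222 ± 28.1 CPM, n = 4 hippocampal units) were also highest there. The cortex held too few nuclei of this name for a comparison of regions. The unnamed cluster of 409 nuclei with Mag among its leading genes, 167 of them of cortex, was not counted here. With the clustering resolution lowered to 1.0, the oligodendrocyte-like cluster held 542 nuclei of hippocampus and 186 of cortex. Oligodendrocyte precursor-like nuclei had pooled Plxnb3 at 84.1 CPM and Sema5b at 72.4 CPM. Ephb6 was at 208 CPM there and at 153 CPM in excitatory neuron-like nuclei, so its level was not read as expression of this class. In this class 0 of 3 members tested were called by edgeR (background 6.64% of 994 genes, 2.72% and 3.92% by direction), with 1 at an unadjusted p under 0.05 and 0 by DESeq2.

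Astrocyte-like nuclei had the highest pooled level of Plxnb1, a receptor of class 4 semaphorins, at 250 CPM. By unit it was at 222 ± 102 CPM in cortex (n = 3 units) and 265 ± 84.5 CPM in hippocampus (n = 4). Pooled Plxnb1 was 149 CPM in ependymal-like, 112 CPM in choroid plexus-like, 85.7 CPM in oligodendrocyte-like and 3.74 CPM in excitatory neuron-like nuclei. Sema4a was at 125 ± 41.7 and 131 ± 33.8 CPM in astrocyte-like nuclei, and it was not called between regions there. The unnamed cluster of 374 nuclei with an astrocyte score of 0.604, 285 of them of cortex, was not part of this class. By edgeR 0 of 12 members tested were called (background 2.87% of 2859 genes, 1.26% and 1.61% by direction), with 2 at an unadjusted p under 0.05 and 0 by DESeq2, and the nearest was Plxna2 at -1.42 (adjusted p = 0.0597). This count depended on the clustering. At a resolution of 1.0 the astrocyte-like cluster held 680 nuclei of hippocampus and 431 of cortex, and 7 members were called. The share over all genes in that fit is not given here. In microglia-like nuclei the counts were 0 of 7 by edgeR (background 3.45% of 2786 genes, 2.37% and 1.08%), 3 at an unadjusted p under 0.05 and 0 by DESeq2, with Ephb6 nearest at -1.64 (adjusted p = 0.0523).

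Some genes abundant in neurons had similar levels in other classes. Epha5, abundant in neurons, was at 370 CPM in hippocampal and 369 CPM in cortical microglia-like nuclei pooled, close to the 429 CPM of excitatory neuron-like nuclei, at median depths of 746 and 2204 UMIs against 1225 and 1252. The levels of Epha6, Robo3 and Ephb6 in microglia-like nuclei were not read as expression there. Free RNA and doublets, which were kept, were not tested as a source. In contrast, Robo4, Sema3g, Plxnb1 and Plxnb3 were at or under 6.03 CPM in each neuron class. Ntng1 (550 CPM), Epha8 (67.2 CPM) and Sema4g (118 CPM) were highest in the diencephalon-midbrain-like nuclei found mainly in hippocampal units. There Ntng1 was at 928 CPM in unit 0 and 293 to 317 CPM in units 1 to 3.

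**Figure D5:**
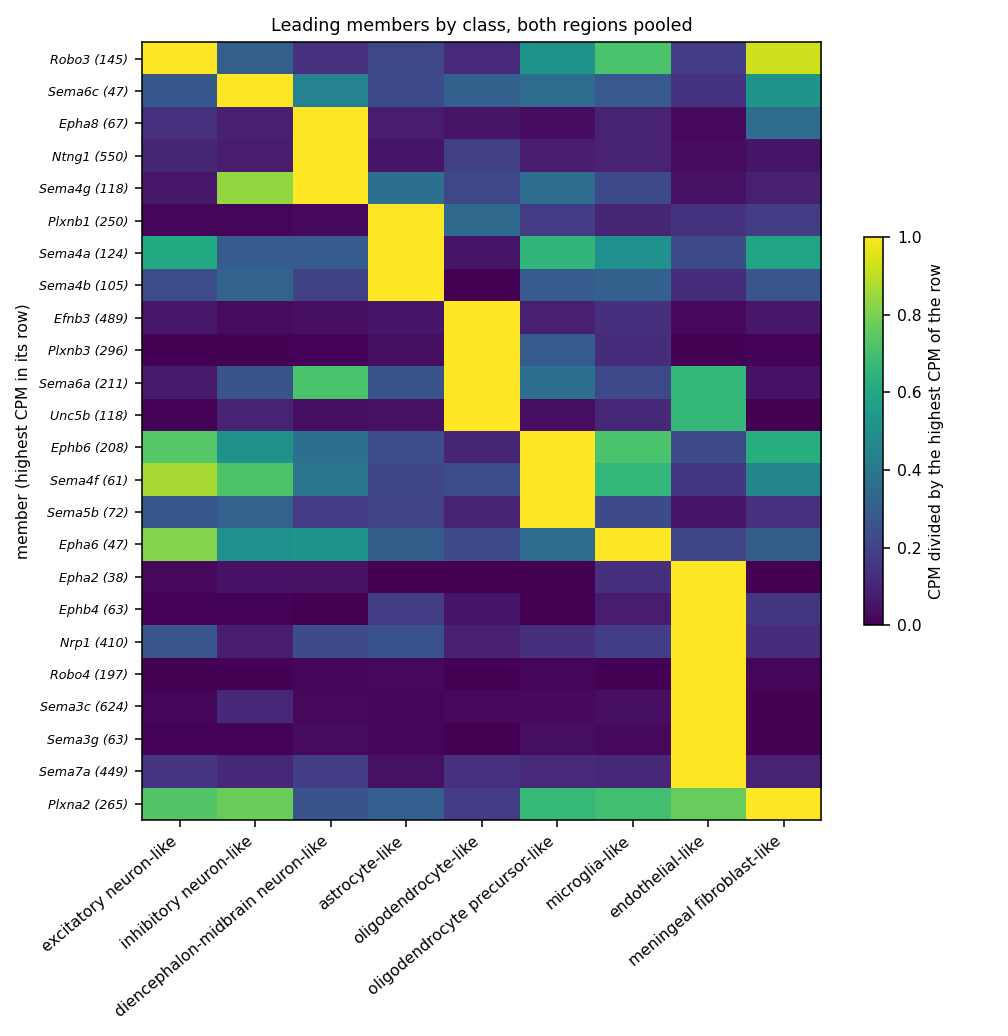
Pooled CPM of the leading members of each class, each row divided by its highest value, given in brackets after the gene, with both regions pooled. Ependymal-like and choroid plexus-like nuclei are not drawn. Robo4, Sema3c, Sema3g, Sema7a, Nrp1, Ephb4 and Epha2 peak in endothelial-like nuclei, Efnb3, Plxnb3, Unc5b and Sema6a in oligodendrocyte-like nuclei and Plxnb1, Sema4a and Sema4b in astrocyte-like nuclei.

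A list of 52 other genes of the pathway, holding adaptors, co-receptors and cytoskeletal effectors, was counted in the same fits. In all nuclei 3 of 51 tested were higher in hippocampus and 11 in cortex, and in excitatory neuron-like nuclei 6 of 46 and 7 of 46. The shares over all genes were 9.35% and 8.39% in all nuclei and 8.74% and 7.72% in excitatory neuron-like nuclei. Tiam1, an exchange factor that activates Rac, was at 47.8 ± 3.88 CPM (SD, n = 4) in cortical and 115 ± 13.4 CPM in hippocampal excitatory neuron-like nuclei (log2 fold change 1.26 ± 0.14, adjusted p = 3.62e-05). Vav3, an exchange factor downstream of Eph receptors, was at 8.10 ± 0.84 and 23.5 ± 5.83 CPM (1.51 ± 0.26, adjusted p = 0.00126). Srgap1, an effector of slit and Robo signalling, was at 9.62 ± 1.19 and 19.9 ± 2.99 CPM (1.03 ± 0.24, adjusted p = 0.00939). Dscaml1, a cell adhesion protein of the Dscam family, was at 15.3 ± 2.47 and 29.2 ± 1.8 CPM (0.90 ± 0.20, adjusted p = 0.00669). Towards cortex, Ngef, the Eph-activated exchange factor ephexin, was at 196 ± 10.8 and 69.4 ± 28.2 CPM (-1.44 ± 0.20, adjusted p = 0.000289). Flrt2, an Unc5-binding adhesion protein, was at 115 ± 16.1 and 56.9 ± 11.4 CPM (-0.99 ± 0.17, adjusted p = 0.00109), and its relative Flrt1 at -1.33 ± 0.26 (adjusted p = 0.00321). Pak1, a Rac-activated kinase, was at -0.74 ± 0.14 (adjusted p = 0.00288).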

How the data were processed

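The authors deposited UMI counts per gene and nucleus as whole numbers. The submitters' processing notes name STAR 2.4.0a24, Seurat and mm10, with no roles given. The analysis used 11624 of 13313 columns, since 1689 matched no label. Members and gene lists were chosen with earlier results of these data known.

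Nuclei were clustered with scanpy 1.11.5 and leidenalg 0.10.2 (40 components, 20 neighbours, resolution 2.0), members left out of the variable genes. Clusters were named from fixed markers at a score of at least 0.5, a margin of 0.15 and 3 supporting markers, and these thresholds were set after the data were seen. Doublets were kept: the automatic caller marked 55 nuclei (0.473%), too few to be taken as working, and removing 897 nuclei by score was an alternative.

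Counts were summed per unit and class (at least 20 nuclei) and tested with edgeR 4.0.16 in R 4.3.3, by its quasi-likelihood test with TMM scaling, its filter on low counts and Benjamini-Hochberg adjustment over all genes tested. DESeq2 1.42.0 was an alternative. The tests were tried on simulated counts, but the outcome is not given here and is not used as support for the calls. Named genes had an adjusted p under 0.05, a mean of at least 10 CPM, regions that did not overlap and the largest fold changes, up to 10 per direction in all nuclei, 8 in excitatory neuron-like nuclei, 4 in other classes and 3 for the interaction, with their binding partners. By class or subtype, up to 3 members with at least 30 UMIs and the largest ratio to the median of the other classes were named, and of other pathway genes up to 4 per direction with the smallest p in all nuclei or in excitatory neuron-like nuclei. The interaction model held the unit as a block.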

Additional observations from a re-analysis of the deposited data

Results flagged for a closer look

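Among 72 groups of 4 units checked for a unit far from the rest, 7 held such a unit, where chance gives about 1 in 20. Over all nuclei, hippocampal unit 0 was high for Ntng1 (169.79 CPM) and Plxnd1 (50.43 CPM). In excitatory neuron-like nuclei, hippocampal unit 0 was low for Nrp1 (168.31 CPM), Efnb3 (45.68 CPM) and Epha7 (324.74 CPM), and cortical unit 0 was low for Nrp2 (14.61 CPM). The remaining value was Efnb1 in cortical unit 1, high at 26.35 CPM in that class. Unit 0 was the outlying unit in 6 of the 7.

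The regional difference itself was not the same in excitatory and inhibitory neuron-like nuclei for 5 members, by edgeR's interaction term with the unit as a block, and for 3 without the block or by DESeq2. The Slit3 value rests on 2 UMIs in hippocampal inhibitory nuclei. On the log2 scale, excitatory minus inhibitory, it was 2.25 for Sema5a, 1.13 for Epha7, 2.84 for Slit3, -1.08 for Ephb6 and -2.09 for Unc5d.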

How the results depend on the processing

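Counts of called members over all nuclei ranged from 27 to 39 when a unit was left out, and in excitatory neuron-like nuclei from 20 to 35. Leaving out a unit gave 0 to 3 inhibitory, 0 to 1 astrocyte, 0 to 1 microglia, 0 oligodendrocyte precursor, 0 endothelial and 3 to 5 interaction calls. Number 0 alone, whose only replicates are repeat libraries of the same unit, gave 17 in excitatory neuron-like nuclei. Numbers 1 to 3 alone gave 44 over all nuclei and 40 in excitatory nuclei, 4 in inhibitory, 1 in astrocyte-like nuclei and 3 interactions. Over all genes the same setting raised the calls from 2281 to 4128 in all nuclei and from 1802 to 3483 in excitatory nuclei. The shares over all genes for its inhibitory, astrocyte and interaction fits are not given here. With no filter on low counts there was 1 call each in inhibitory, microglia-like and endothelial-like nuclei. A term for number 0 gave 3 in inhibitory and 2 in microglia-like nuclei. With libraries a and b kept apart there was 1 each in astrocyte-like and microglia-like nuclei. Doubling the Leiden resolution gave 1 inhibitory call and halving it 7 astrocyte calls. In the halved setting the astrocyte-like cluster held 680 nuclei of hippocampus and 431 of cortex. Astrocyte calls were 2 with doublets removed and 1 with a minimum of 10 nuclei. DESeq2 gave 3 interactions, 32 members over all nuclei and 25 in excitatory nuclei. Causes of these moves were not tested. Except for numbers 1 to 3 in all nuclei and in excitatory nuclei, the shares over all genes in these settings are not given here. Their counts are therefore not read as results about members. Named genes kept direction and call in 410 of their values over all nuclei, with 10 no longer called. The figures were 342 and 26 in excitatory nuclei and 43 and 17 for the interaction. Leaving out hippocampal layer 2 to 4-like or oligodendrocyte-like nuclei was chosen after seeing the data.

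Same-numbered units of the regions correlated at 0.428, 0.097, 0.017 and 0.029 for numbers 0 to 3, so the numbers were not taken to pair the samples, and not every unit correlated best with its own number. A replicate block gave 36 calls over all nuclei, 33 in excitatory and 1 in microglia-like nuclei, and 0 in the other classes. The interaction without the replicate block gave 3. Shares over all genes in these fits are not given here. Microglia-like nuclei with doublets removed, and microglia-like and oligodendrocyte precursor-like nuclei at 600 UMIs or more, left too few units for a value. Depth limits the smaller classes most: 3 to 18 members passed the count filter there, so a regional difference was often not detectable.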

Other observations

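Ependymal-like nuclei, of which there were 52 and all in hippocampus, had Plxnb2 at 512 CPM on 31 UMIs, and no unit held 20 such nuclei.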
